A study of Apis mellifera with 2 samples.

Results

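Genes grouped as chloride channels gated by GABA, glutamate or histamine were followed in single-nucleus RNA sequencing of honeybee forager brains. The 6 named genes were Rdl, Grd, Lcch3, GluCl, Hiscl1 and Amel_8916, taken by symbol without regard to case, and 5 of them were found among the 12200 genes listed for both libraries. No row carried the symbol Rdl, so this gene was not analysed here, and Lcch3 is listed as LCCH3. The study compared foragers of Apis mellifera carnica exposed to bromocriptine (the BRC group), a drug that activates D2-like dopamine receptors, with foragers exposed to ddH2O. The sample titles speak of fed bees, whereas the treatment protocol and the methods give a spray over the whole colony on consecutive days. The brains of each condition were pooled into 1 library, and the labels state 15 foragers per group, a number that differs from that in the methods.

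Each of these genes encodes a subunit of a pentameric channel of the Cys-loop family. In the chloride channels of this family, binding of the transmitter opens a pore for chloride, which as a rule lowers the excitability of the receiving cell. In insects GABA and glutamate both act on such channels in the central brain, and histamine is the transmitter that photoreceptors release onto neurons of the optic lobe. GluCl is the target of avermectins, and Rdl, the main GABA receptor subunit of insects, is that of cyclodienes and fipronil. Lcch3 and Grd are named after Drosophila genes for GABA receptor-like subunits, and Hiscl1 encodes a histamine-gated subunit. Amel_8916 carries the number of the Drosophila gene CG8916, a subunit of this family whose ligand is not established. The ion passed by channels that hold Lcch3, Grd or Amel_8916 was not measured here.

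Each library listed 20000 barcodes, with 76531513 UMIs (unique molecular identifiers, which count captured RNA molecules) in BRC and 77047419 in ddH2O. After filtering and removal of doublets, 15896 BRC and 16716 ddH2O nuclei were kept, with a median of 1921 and 3263 UMIs, and 120 barcode sequences occurred in both libraries. Nuclei fell into 24 clusters, of which 6 carried neuronal markers and 8 glial markers. Neurons made up 25.6% of BRC and 47.8% of ddH2O nuclei (4065 and 7992), and glia 16.6% and 36.4% (2638 and 6083). Clusters 3, 5, 11, 18 and 23 were nearly confined to BRC, with at most 37 ddH2O nuclei each, and stayed unnamed. Cluster 1, with 2532 BRC and 1758 ddH2O nuclei, was among the other unnamed clusters. These shares, and all values for neurons and glia below, cover the named clusters only. The libraries also differ in the version of the counting software Cell Ranger in their headers (7.2.0 in BRC, 7.0.1 in ddH2O). They differ in the number of genes listed as well (12635 and 12245). These, the depth, the makeup and the treatment of the libraries differ together and cannot be told apart. With 1 library per condition no test between conditions exists, so values are CPM (UMIs of a gene divided by all UMIs of the same class and library and scaled to 1e6) with exact 95% intervals that cover counting error only. CPM counts molecules caught at their 3′ end and was not divided by gene length, so an order between genes is an order of UMIs.

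In genome build Amel_HAv3.1, Grd lies on linkage group 1 at 6428662 to 6469994 and overlaps 2 other annotated genes. Lcch3 (linkage group 9, 1324939 to 1338281) and Amel_8916 (linkage group 9, 1342582 to 1364708) are neighbours, with 4300 bases and 0 annotated genes between them. GluCl lies on linkage group 14 at 5177026 to 5214539, where it overlaps the microRNA gene Mir3786, and Hiscl1 on linkage group 2 at 6409564 to 6416225. These spans hold exons and introns together. Whether reads were assigned by strand is not stated in the sources used here, so UMIs of Grd and of the genes that overlap it may not be fully separated.

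GluCl, the glutamate-gated channel, was the channel with the most UMIs in both libraries. It held 1560.2 CPM in BRC neurons (12666 UMIs, interval 1533 to 1588) and 2567 CPM in ddH2O neurons (69918 UMIs, 2548 to 2586). In glia it held 202 CPM in BRC (191 to 213) and 1439 CPM in ddH2O (1424 to 1455). Neurons thus exceeded glia in both libraries, by 7.73-fold in BRC and 1.78-fold in ddH2O. Thinned to 1000 UMIs per nucleus, so that depth is alike, 69.1% of BRC neurons and 90.1% of ddH2O neurons held a GluCl UMI, against 13.0% and 71.9% of glia. Without thinning these shares were 83.3% and 99.8% of neurons and 23.4% and 97.1% of glia, at a median depth of 1674 and 3099 UMIs in neurons and 1816 and 3394 in glia.

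Among the neuron clusters, GluCl ranged from 956 CPM in the Kenyon cells (KCs, cluster 0, the intrinsic neurons of the mushroom body) to 2358 CPM in cluster 10 of BRC. In ddH2O it ranged from 2174 CPM, again in the KCs, to 3081 CPM in cluster 2, whose leading genes in BRC include the glutamate receptor gene Glurb. The KCs were therefore the neuron cluster with the least GluCl in both libraries. In BRC the intervals of clusters 10 and 2 (2358 and 2287 CPM) overlapped, so their order is not set. Unnamed cluster 1 lay within the range of the neuron clusters, with 1525 CPM of GluCl in BRC (10103 UMIs) and 2663 CPM in ddH2O (19533 UMIs). It held 1848 and 3319 CPM of the neuronal marker fne, 1406 and 3699 CPM of the neuronal marker Para, and 22.2 and 195 CPM of Lcch3.

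Lcch3, the GABA receptor-like subunit, showed the same division at a lower level. It held 107 CPM in BRC neurons (869 UMIs, 100.05 to 114) and 217 CPM in ddH2O neurons (5908 UMIs, 211 to 223). Glia held 12.4 CPM in BRC (77 UMIs, 9.82 to 15.5) and 124 CPM in ddH2O (2974 UMIs, 119 to 128). Neurons exceeded glia by 8.61-fold in BRC and 1.75-fold in ddH2O. In thinned nuclei, 9.57% of BRC neurons and 0.986% of BRC glia held an Lcch3 UMI, against 19.7% and 12.5% in ddH2O (unthinned 17.4% and 2.58% in BRC, 50.1% and 36.8% in ddH2O). In BRC the ebony-high glial cluster 12 had 0 Lcch3 UMIs, which allows up to 8.60 CPM at a floor of 3 UMIs (exact upper bound 10.6 CPM), whereas the same cluster in ddH2O held 156 CPM.

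Hiscl1, the histamine-gated subunit, held 74.2 CPM in BRC neurons (602 UMIs, 68.4 to 80.3) and 122 CPM in ddH2O neurons (3322 UMIs, 118 to 126). Glia held 9.53 CPM (59 UMIs, 7.26 to 12.3) and 69.4 CPM (1667 UMIs, 66.1 to 72.8). The ratio of neurons to glia was 7.78 in BRC and 1.76 in ddH2O. In thinned nuclei 5.56% of BRC neurons and 0.834% of BRC glia held a Hiscl1 UMI, against 11.02% and 6.89% in ddH2O (unthinned 8.73% and 1.48%, then 27.8% and 21.5%). Of the neuronal Hiscl1 UMIs, 346 of 602 in BRC and 1219 of 3322 in ddH2O came from 1 cluster, which is described below.

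Amel_8916 was the rarest, with 213 UMIs in all kept BRC nuclei and 731 in ddH2O. Neurons held 19.3 CPM in BRC (157 UMIs, 16.4 to 22.6) and 16.5 CPM in ddH2O (449 UMIs, 15.0 to 18.1). Glia held 2.75 CPM (17 UMIs, 1.60 to 4.40) and 7.78 CPM (187 UMIs, 6.71 to 8.98). Neurons exceeded glia by 7.04-fold in BRC and 2.12-fold in ddH2O.

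Grd, the second GABA receptor-like gene, stood apart in that neurons and glia held nearly the same level. It held 115 CPM in BRC neurons (930 UMIs, 107 to 122) and 118 CPM in BRC glia (730 UMIs, 109.5 to 127). In ddH2O it held 127 CPM in neurons (3467 UMIs, 123 to 132) and 107 CPM in glia (2563 UMIs, 103 to 111). The neuron-to-glia ratio was 0.971 in BRC, with a log2 interval of -0.18 to 0.10 that includes 0, and 1.19 in ddH2O. The BRC value depended on the clusters counted. Its log2 was -0.37 (-0.53 to -0.22) without cluster 10, the bsh cluster described below, and -0.20 (-0.34 to -0.06) without integration. With cluster 11 counted as glia it was -0.37 (-0.49 to -0.24), while under the other alternatives the interval included 0. Thinned shares were 9.72% of neurons and 10.6% of glia in BRC, and 11.5% and 10.0% in ddH2O (unthinned 17.4%, 21.5%, 31.6% and 31.4%).

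**Figure D1:**
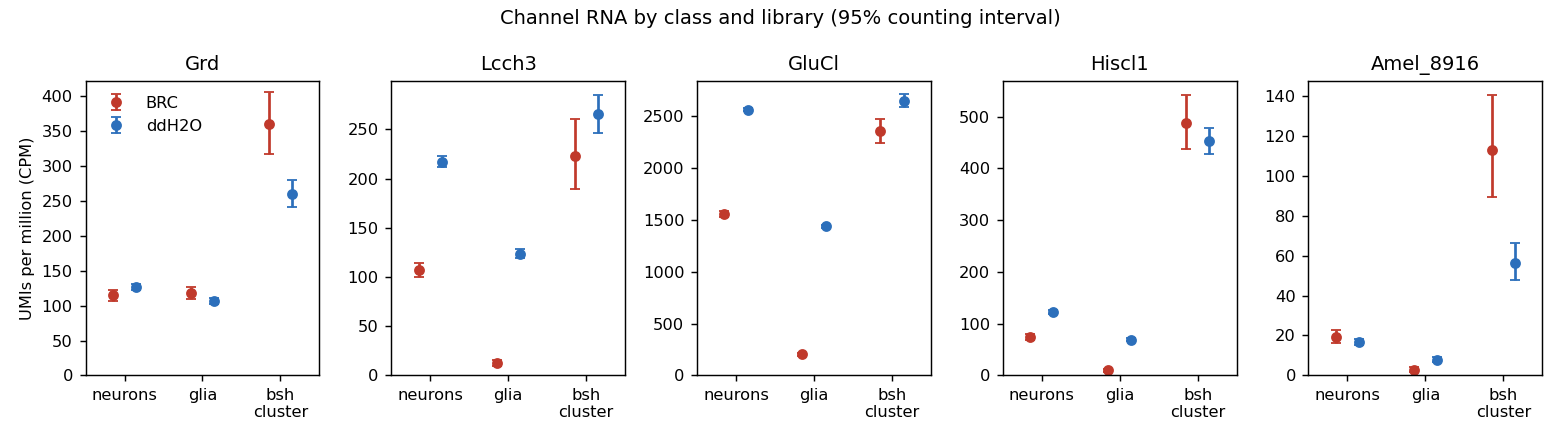
Level of the 5 channel genes in CPM (y axis, from 0, a scale of its own for each gene) in neurons, glia and the bsh cluster of the BRC (red) and ddH2O (blue) library, points with exact 95% counting intervals. GluCl, Lcch3, Hiscl1 and Amel_8916 lie higher in neurons than in glia in both libraries, and Grd lies between 107 and 127 CPM in both classes. Of the classes shown, the bsh cluster is highest for all 5 genes in both libraries.

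The gap between neurons and glia was set beside that of general neuronal genes in each library. The 5 pan-neuronal markers Syt1 and nSyb (synaptic vesicle proteins), fne (an RNA-binding protein), Para (the voltage-gated sodium channel) and Cac (a voltage-gated calcium channel) were 6.15- to 9.63-fold higher in neurons in BRC and 1.63- to 1.95-fold higher in ddH2O. GluCl, Lcch3 and Hiscl1 fell within both ranges, and Amel_8916 within that of BRC. The glial transcription factor repo was 58.2-fold higher in glia in BRC and 7.002-fold in ddH2O. These markers and repo also served to name the clusters, so their gaps are in part fixed by the naming and are no independent gauge. Of all genes with at least 100 UMIs in neurons and glia together, 10.6% in BRC and 1.02% in ddH2O were at least 2-fold higher in neurons. Summed over the 5 markers, glia held 1257 CPM in BRC and 7799.7 CPM in ddH2O, and by cluster 848 to 1967 CPM and 3722 to 10710.0 CPM, with no marker at 0 in glia as a whole. In the 8 glial clusters of ddH2O there were 9.55 to 13.2 GluCl UMIs per Lcch3 UMI, and in its 6 neuron clusters 10.0 to 15.4. In BRC the range was 7.6 to 28 in glial clusters with an Lcch3 UMI, and 10.6 to 55.8 in neuron clusters. GluCl UMIs per Grd UMI in ddH2O ranged from 5.74 to 19 in glial clusters and from 10.2 to 29.9 in neuron clusters. The part of free RNA or of mixed nuclei in the ddH2O glial levels was not tested, and shares of ddH2O glia with a channel UMI are not read here as expression.

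**Figure D2:**
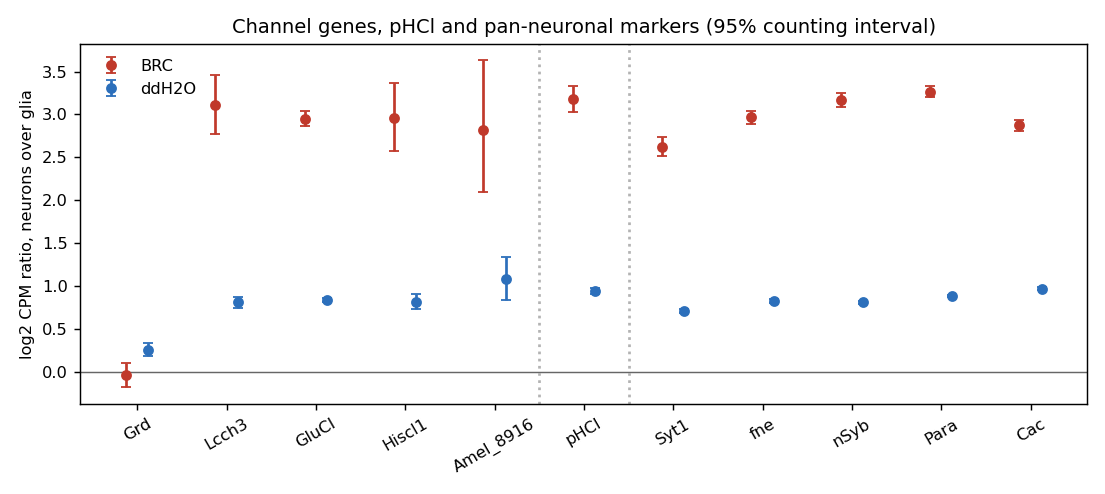
log2 ratio of CPM in neurons over glia (y axis) for the 5 channel genes, pHCl and 5 pan-neuronal markers in BRC (red) and ddH2O (blue), with 95% counting intervals and a line at 0. All but Grd lie between 2.62 and 3.27 in BRC and between 0.70 and 1.08 in ddH2O, while Grd lies at -0.04 and 0.26.

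Hiscl1 and Amel_8916 shared a peak in cluster 10, the neurons marked by bsh (a homeobox gene of optic lobe neurons in Drosophila). Cluster 10 held 316 BRC and 757 ddH2O nuclei. The study itself lists both bsh and Hiscl1 as markers of optic lobe cells, and Hiscl1 was left out of the markers used here. The channel genes were kept out of the features used for clustering, but the cluster was singled out after its channel levels had been seen, so the values describe it and are no test. Hiscl1 reached 488 CPM in BRC (346 UMIs, 438 to 542) and 453 CPM in ddH2O (1219 UMIs, 428 to 479). That was 34.98-fold over all other BRC nuclei and 5.998-fold over all other ddH2O nuclei. In thinned nuclei 35.4% of BRC and 34.7% of ddH2O nuclei of this cluster held a Hiscl1 UMI (unthinned 53.5% and 68.7%).

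Amel_8916 held 113 CPM in this cluster in BRC (80 UMIs, 89.5 to 140.4) and 56.4 CPM in ddH2O (152 UMIs, 47.8 to 66.1), or 33.1-fold and 5.78-fold over the rest. With 1.99% of the BRC nuclei, the cluster contained 38.9% of all Hiscl1 UMIs and 37.6% of all Amel_8916 UMIs. With 4.53% of the ddH2O nuclei it contained 21.4% and 20.8%. Ranked by fold over the rest, Hiscl1 and Amel_8916 stood at 2 and 6 of 4361 genes in BRC and at 5 and 11 of 7428 in ddH2O.

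The next cluster for Hiscl1 among neurons was cluster 2, at 76.6 CPM in BRC and 99.9 CPM in ddH2O, and the interval of cluster 10 lay apart from it in both libraries. Cluster 2 was also next for Amel_8916 in BRC, at 25.9 CPM. The KCs were low for both in BRC, with 8.20 CPM of Hiscl1 and 1.31 CPM of Amel_8916, whereas in ddH2O they held 75.7 and 10.6 CPM. Below the top place, most neighbouring clusters had overlapping intervals, so no finer order is given.

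The other channels were also higher in the bsh cluster than over all other nuclei, though less so in ddH2O. Lcch3, GluCl and Grd were higher by 8.41-, 3.65- and 2.71-fold in BRC and by 1.57-, 1.29- and 2.38-fold in ddH2O. Lcch3 held 223 CPM in BRC and 265 CPM in ddH2O, the highest of any cluster, although in ddH2O its interval overlapped that of cluster 2 (244 CPM). GluCl held 2358 CPM in BRC and 2654 CPM in ddH2O, where cluster 2 held more (3081 CPM). Grd held 359.7 CPM in BRC and 259.9 CPM in ddH2O in the bsh cluster. In BRC, 24.1% of the thinned nuclei of this cluster held UMIs of 3 or more of the 5 genes, against 3.32% of all neurons and 0.0758% of glia. In ddH2O these shares were 16.9%, 5.42% and 2.58% (unthinned 67.8%, 31.9% and 22.6%, against 50.3%, 8.39% and 0.910% in BRC).

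Outside named classes, Grd had its highest level in cluster 18, at 765 CPM in BRC (2038 UMIs, 733 to 799). This cluster held 319 BRC and 3 ddH2O nuclei, had raised Hbg3, Mrjp3 and Vmat, and a median of 8508 UMIs. The other 4 channels were low there, with 84.9 CPM of GluCl, 1.13 of Lcch3, 3.004 of Hiscl1 and 0.75 of Amel_8916. Of its thinned nuclei 49.5% held a Grd UMI. Cluster 11, which had raised Vg and held 801 BRC and 23 ddH2O nuclei, followed among unnamed clusters with 274 CPM in BRC.

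**Figure D3:**
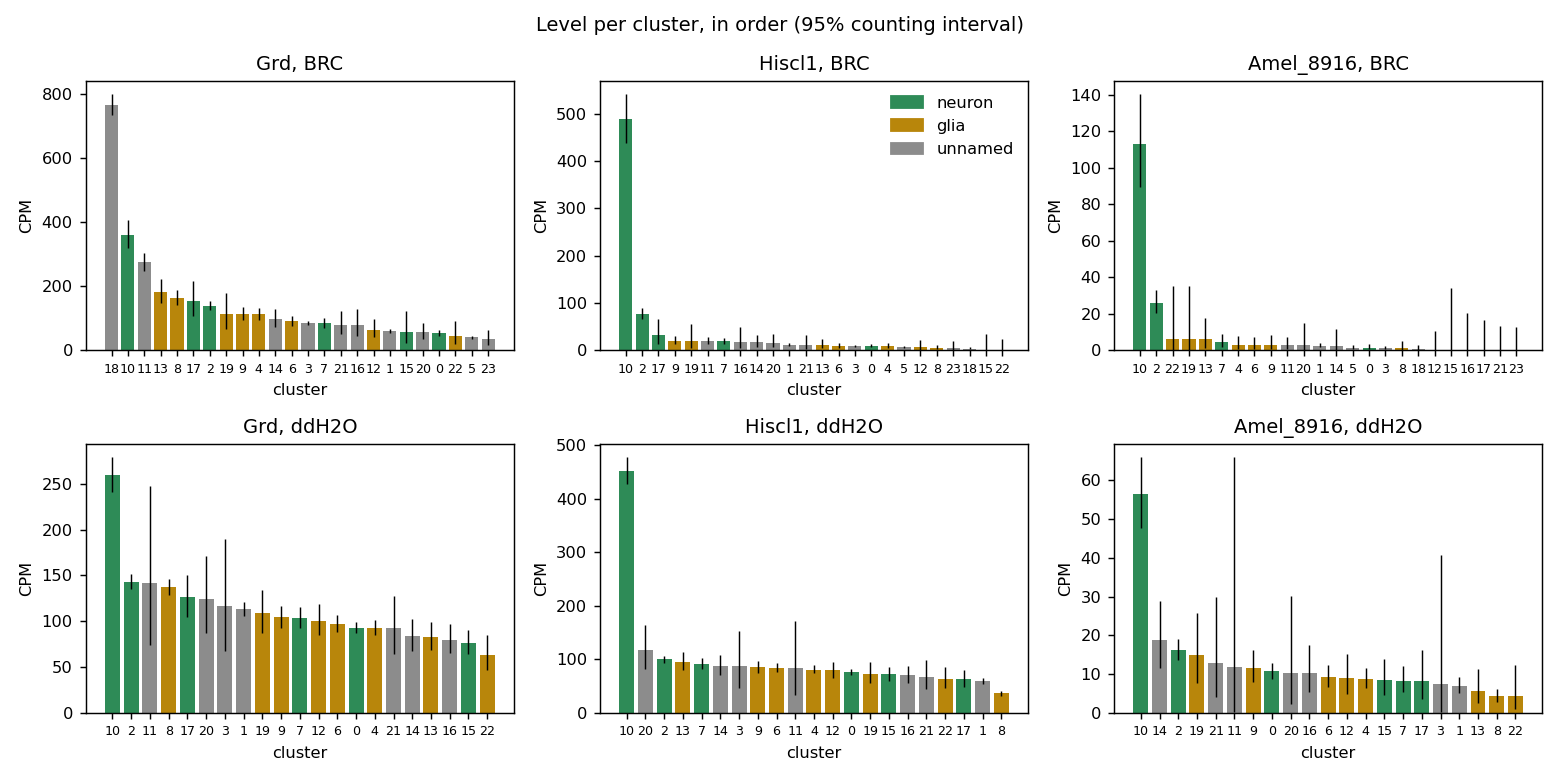
CPM of Grd, Hiscl1 and Amel_8916 (y axes, from 0) in each cluster with at least 20 nuclei (x axes, in order of level) of BRC (top) and ddH2O (bottom), coloured by broad class, with 95% counting intervals. Cluster 10, the bsh cluster, is first for Hiscl1 and Amel_8916 in both libraries, and cluster 18, at 765 CPM, is first for Grd in BRC.

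Over the 18 clusters of each library with at least 100 nuclei, Hiscl1 and Amel_8916 had alike patterns, with a Pearson r of log2(CPM + 10) of 0.88 in ddH2O and 0.97 in BRC. GluCl and Lcch3 went together as well, at 0.94 and 0.90, and each followed Para at 0.97 and 0.94 for GluCl and 0.92 and 0.91 for Lcch3. Grd was less alike to GluCl (0.41 and -0.05) and Lcch3 (0.46 and 0.07), and stood at 0.62 and 0.32 to Hiscl1. The 2 sets of clusters share 13, and clusters 11 and 18, high in Grd, are in the BRC set alone. Over the shared 13, the values for Grd became 0.27 and 0.11 to GluCl, 0.32 and 0.35 to Lcch3 and 0.67 and 0.71 to Hiscl1, while Hiscl1 and Amel_8916 stood at 0.90 and 0.98 and GluCl and Lcch3 at 0.97 and 0.89. Clusters of 1 library share its depth and free RNA, so these values are descriptions.

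Among 8251 genes, those most like each channel in ddH2O were picked by r and are given with the value in BRC second. For GluCl they were Nrx-1, a synaptic adhesion gene (0.98 and 0.94), LOC409771 (0.98 and 0.88) and LOC411617 (0.98 and 0.91). For Lcch3 they were LOC409323 (0.98 and 0.89), LOC100577237 (0.97 and 0.89) and LOC412594 (0.96 and 0.90). LOC410669 led the lists of both Hiscl1 (0.91 and 0.94) and Amel_8916 (0.88 and 0.98). LOC100578382 followed Hiscl1 in the list of Amel_8916 (0.86 and 0.93), and LOC412219 was second for Hiscl1 in ddH2O at 0.88 but had -0.37 in BRC. For Grd they were LOC100576882 (0.89 and 0.82), LOC411176 (0.85 and 0.03) and LOC107964825 (0.80 and 0.60).

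Detection of 2 channels in the same nucleus was compared within clusters. For each of the 10 pairs, thinned nuclei holding both genes were set against the number expected from the shares within each cluster. The ratio lay between 0.85 and 1.21 for all pairs in both libraries other than Hiscl1 and Amel_8916 in BRC. Lcch3 and GluCl met in 319 BRC nuclei (319 expected, ratio 1.00) and in 2376 ddH2O nuclei (2364 expected, ratio 1.01). Grd and Hiscl1 met in 213 ddH2O nuclei against 176 expected, a ratio of 1.21 (1.05 to 1.38), and in BRC the ratio was 1.14 (0.88 to 1.45). In unthinned nuclei, which differ in depth, the interval lay above 1 for 5 of the 10 pairs in BRC and 3 in ddH2O. Besides Hiscl1 and Amel_8916 these were, in BRC, Lcch3 with Grd (1.23), GluCl (1.08), Hiscl1 (1.26) and Amel_8916 (1.45), and in ddH2O Grd with Hiscl1 (1.10) and Amel_8916 (1.17).

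Hiscl1 and Amel_8916 met in 29 BRC nuclei against 13.9 expected, a ratio of 2.08 (1.39 to 2.99), and in 26 ddH2O nuclei against 24.0, a ratio of 1.08 (0.71 to 1.59). Unthinned, the ratios were 2.003 (1.59 to 2.496) and 1.25 (1.11 to 1.41). Within the bsh cluster the thinned ratios were 1.54 (0.91 to 2.43) and 1.31 (0.73 to 2.16), with intervals that include 1, and the unthinned ones 1.53 (50 nuclei against 32.6, 1.14 to 2.02) in BRC and 1.14 (101 against 88.6, 0.93 to 1.38) in ddH2O. Hiscl1 also met VAChT, the vesicular acetylcholine transporter, more often than expected in ddH2O (265 nuclei, ratio 1.20, 1.06 to 1.36), and the BRC ratio was 1.21 (0.89 to 1.60). With VGlut, the vesicular glutamate transporter, it was 1.04 (0.85 to 1.26) in ddH2O. No other pair of a channel with VAChT or VGlut had an interval above 1 in either library. Within the bsh cluster the ratio of Hiscl1 with VAChT was 1.22 (0.95 to 1.54) in ddH2O and 1.14 (0.77 to 1.63) in BRC, with intervals that include 1. These intervals treat the nuclei of 1 library as independent and the expected number as known.

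**Figure D4:**
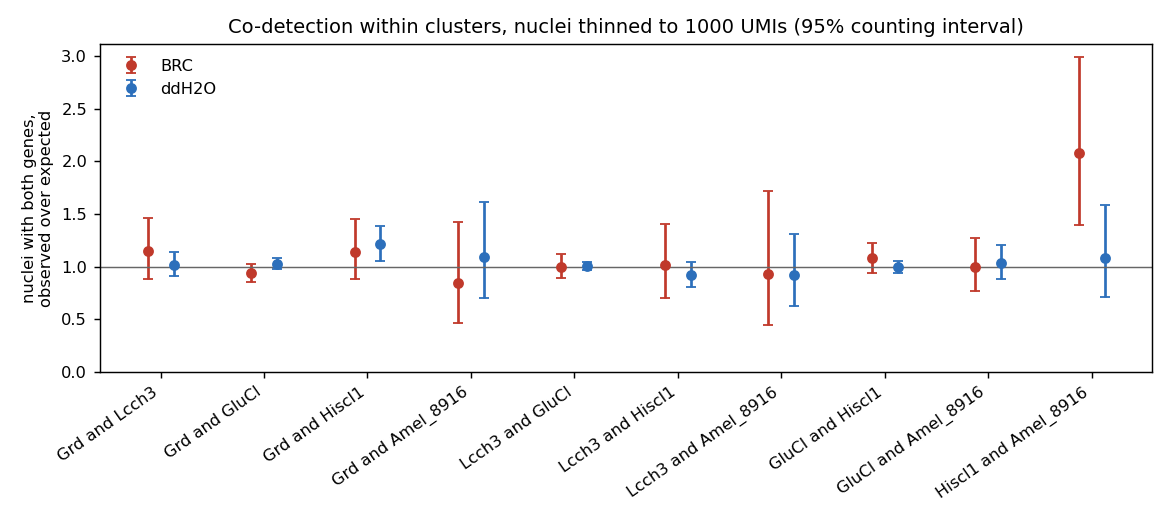
Thinned nuclei with UMIs of both genes of a pair, divided by the number expected within clusters (y axis, from 0, line at 1), for the 10 pairs of channel genes in BRC (red) and ddH2O (blue), with 95% counting intervals. Hiscl1 and Amel_8916 in BRC, at 2.08, and Grd and Hiscl1 in ddH2O, at 1.21, are the pairs whose interval lies above 1 in thinned nuclei.

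Between the libraries, 4 of the 5 channels were lower in BRC over all kept nuclei and Grd was not. Over all kept nuclei, Lcch3 held 29.997 CPM in BRC and 173 in ddH2O (log2 ratio -2.53), Hiscl1 22.4 and 91.8 (-2.03), GluCl 677 and 2085 (-1.62), Amel_8916 5.36 and 11.8 (-1.14), and Grd 137 and 116 (0.24, which turned to -0.028 in thinned nuclei). Thus 4 of 5 were at least 2-fold lower in BRC, where 11.3% of 10367 genes were and 15.3% were at least 2-fold higher. The median of all genes was 0.01. Over the same nuclei the 5 pan-neuronal markers lay between -1.73 (Syt1 and Para) and -1.11 (Cac), and the share of neurons differed as given above. The Grd value over all kept nuclei rests in part on cluster 18, with 319 BRC and 3 ddH2O nuclei. This cluster held 2038 of the 5433 Grd UMIs in BRC. The difference of Grd without cluster 18 was not tested. By class, Grd was lower in BRC in neurons and higher in BRC in glia, as given below.

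Within neurons the differences were smaller. Lcch3 was 2.03-fold lower in BRC (-1.02, interval -1.12 to -0.92), GluCl 1.65-fold (-0.72, -0.75 to -0.69) and Hiscl1 1.64-fold (-0.72, -0.85 to -0.59). Grd was at -0.15 (-0.26 to -0.05) and Amel_8916 at 0.23 (-0.04 to 0.50), an interval that includes 0. At least 2-fold lower was 1 of 5, where 5.05% of 9071 genes were (6.47% were at least 2-fold higher), and the median of all genes was -0.05. The pan-neuronal markers were lower too, with Syt1 at -0.85, Para at -0.52, Cac at -0.41, nSyb at -0.39 and fne at -0.36. The bsh cluster set part of these values, as without it Hiscl1 stood at -1.31 and Amel_8916 at -0.22. In the KCs Hiscl1 was at -3.21 and GluCl at -1.19, while in cluster 2 they were at -0.38 and -0.43.

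Within glia GluCl was 7.13-fold lower in BRC (-2.83, -2.92 to -2.75), Lcch3 9.95-fold (-3.31, -3.66 to -2.99), Hiscl1 7.28-fold (-2.86, -3.26 to -2.49) and Amel_8916 2.83-fold (-1.50, -2.31 to -0.78). That is 4 of 5 at least 2-fold lower, where 10.8% of 9071 genes were and 11.8% were at least 2-fold higher. In the same nuclei the 5 pan-neuronal markers lay between -2.91 (Para) and -2.32 (Cac), and repo was at 1.38. Grd was at 0.14 (0.02 to 0.26), beside a median of all genes of 0.12, and turned to -0.026 under median-of-ratios scaling.

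In the bsh cluster Hiscl1 differed by 0.11 on the log2 scale (-0.07 to 0.28), Lcch3 by -0.25 (-0.51 to 0.00) and GluCl by -0.17 (-0.25 to -0.09), beside a median of all genes of -0.17. Grd was at 0.47 (0.26 to 0.68) and Amel_8916 at 1.00 (0.59 to 1.40), just short of 2-fold higher. None of the 5 was at least 2-fold lower, where 11% of 4312 genes were, and 3.39% were at least 2-fold higher. Clustered again from nuclei with over 500 genes, the cluster with the highest bsh fold gave -2.15 for Hiscl1, -0.68 for GluCl (-0.84 to -0.53) and -0.76 for Lcch3 (-1.39 to -0.15), so the values for this cluster rest on how its nuclei were grouped. In that run Grd was at 0.62 (-0.03 to 1.28) and Amel_8916 at 0.64 (-0.81 to 2.15), with intervals that include 0. Grd stood at 0.84 (0.50 to 1.18) in thinned nuclei, and GluCl at -0.28 with doublets kept. Amel_8916 passed 2-fold at resolution 1.0 (1.02) and in thinned nuclei (1.26, 0.54 to 1.98).

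**Figure D5:**
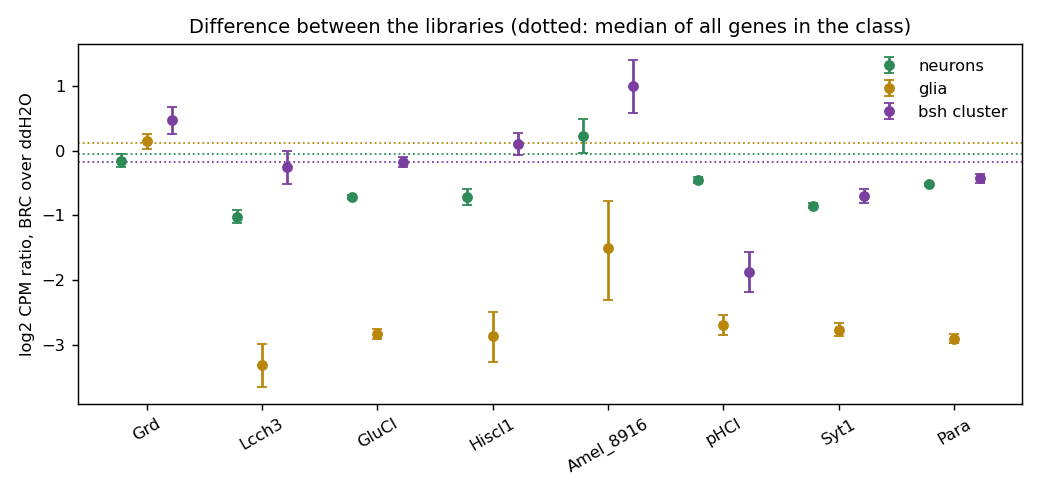
log2 ratio of CPM in BRC over ddH2O (y axis) in neurons, glia and the bsh cluster for the 5 channel genes, pHCl and the neuronal markers Syt1 and Para, with 95% counting intervals and, dotted, the median of all genes in each class. In glia all but Grd lie at -1.50 or below, and in the bsh cluster Amel_8916 lies at 1.00 and pHCl at -1.87.

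Of the genes around these channels, pHCl was higher in neurons than in glia, as GluCl was. It encodes a chloride channel of the same family gated by pH in Drosophila. It held 550.1 CPM in BRC neurons and 60.7 in BRC glia (9.06-fold), and 753 and 392.4 in ddH2O (1.92-fold). In the bsh cluster it was at 134 CPM in BRC and 490.1 CPM in ddH2O (-1.87, -2.19 to -1.57). Within neurons pHCl and GluCl did not share an order of clusters. GluCl UMIs per pHCl UMI ranged in BRC from 1.23 in the KCs to 17.6 in the bsh cluster. In ddH2O they ranged from 1.78 in cluster 15 to 5.42 in the bsh cluster. The GABA transporter genes Gat-a and Gat-1B, which clear GABA, were higher in glia, by 44.7- and 38.3-fold in BRC and 4.80- and 5.08-fold in ddH2O. VGlut, which loads glutamate into vesicles, was 12.9-fold higher in neurons in BRC and 1.75-fold in ddH2O. In neurons it was at 83.3 CPM in BRC and 73.7 CPM in ddH2O.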

How the data were processed

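The deposited matrices are raw UMI counts, which the authors obtained from Cell Ranger (7.0.1 per the labels and the ddH2O header, 7.2.0 in the BRC header) on Amel_HAv3.1. Members, lists and tests were chosen with earlier results of these data known. Nuclei with a log10 gene per log10 UMI ratio over 0.85, 200 to 5000 genes and under 5% mitochondrial UMIs were kept, and doublets were removed by the Scrublet method (0.8% per 1000 nuclei) in place of scDblFinder. Seurat 5.3.0 integrated the libraries by CCA (50 components, resolution 0.5) without the channel genes. Python 3.11.15, numpy 2.4.6 and scipy 1.17.1 gave sums, Poisson, conditional and Clopper-Pearson intervals (95%), and thinning to 1000 UMIs. The conditional interval of a ratio was run on simulated independent Poisson counts, the model it assumes. This checks the code only and says nothing on spread between nuclei or bees.

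The rule that turned marker levels into names was written after the clusters' marker and channel levels had been seen. Of 3 versions tried, the second is used. It differs from the first in requiring repo for glia and the most raised markers for a subtype, which left cluster 11 unnamed (first SG) and clusters 7, 8, 12 and 22 without a subtype (first OLC, CG, EG and CG). The third, based on the strongest marker, was tried after the second had given its names and was discarded. It moved subtypes of glia only, named clusters 8 and 12 CG and EG, and took the subtypes of 4 and 13. A class needed at least 3 raised markers (1.5-fold with 5 CPM added). Markers were taken after the marker table of the study, with changes. Hiscl1 and Eaat-1 are listed there for optic lobe cells and moody for astrocytes. Here Hiscl1 was left out, and Eaat-1 was counted as glial and moody as surface glia, from knowledge of Drosophila. Genes named are the channels, those of a transmitter list found by symbol, and the 3 most alike in pattern per channel. Cluster 17 met the rule for OPN, but troponin genes lead it, so it is not called so. Background shares use genes with at least 100 UMIs, and 45 tRNA names were left out. Alternatives were doublets kept, over 500 genes, resolution 1.0, no integration, other scalings, unthinned or thinned nuclei and expectations over all nuclei. Leaving out the bsh cluster or clusters under 100 nuclei, counting cluster 11 as glia, and taking r over clusters shared by both libraries, were added after the data were seen.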

Additional observations from a re-analysis of the deposited data

Results flagged for a closer look

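The difference of Grd between the libraries had opposite signs in neurons and glia. BRC over ddH2O was -0.15 on the log2 scale in neurons and 0.14 in glia, each with a counting interval apart from 0. The difference between these 2 values was not tested, as each class has 1 library per condition, and neither interval stays apart from 0 under every alternative. In neurons it reached from -0.19 to 0.023 without the 50 most abundant genes and from -0.32 to 0.0014 in thinned nuclei. In glia it reached from -0.046 to 0.16 with doublets kept, from -0.12 to 0.28 in thinned nuclei and from -0.15 to 0.093 under median-of-ratios scaling, where the value turned to -0.026.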

How the results depend on the processing

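Values are log2 ratios. GluCl, Lcch3, Hiscl1 and Amel_8916 were higher in neurons than in glia, and GluCl, Lcch3 and Hiscl1 lower in BRC in neurons and glia, under every alternative that gave a value. Sizes moved beyond the counting interval as follows, and the cause was not tested. With doublets kept, BRC over ddH2O was -1.16, -0.80 and -0.85 in neurons and -2.81, -2.23 and -2.44 in glia for Lcch3, GluCl and Hiscl1, and neurons over glia was 2.31, 2.13 and 2.18 in BRC and 0.67, 0.70 and 0.60 in ddH2O, with 0.72 for Amel_8916 in ddH2O. Without the bsh cluster, BRC over ddH2O in neurons was -0.31 for Grd, -1.14 for Lcch3, -0.79 for GluCl, -1.31 for Hiscl1 and -0.22 for Amel_8916, and neurons over glia was -0.37, 1.86 and 1.92 in BRC and 0.080, 0.30 and 0.64 in ddH2O for Grd, Hiscl1 and Amel_8916. Thinned to 1000 UMIs, GluCl was at -0.77 in neurons and -3.24 in glia, Lcch3 at -3.74 in glia and Grd at -0.028 over all kept nuclei, reversed, while neurons over glia was 3.23 for GluCl in BRC and 0.77 for GluCl and 0.72 for Lcch3 in ddH2O. Without integration no ddH2O cluster met the rule for neurons. GluCl and Hiscl1 were then at -3.27 and -3.57 in glia, and neurons over glia in BRC was -0.20, 3.54 and 3.46 for Grd, GluCl and Hiscl1. At resolution 1.0 Hiscl1 was at -0.93 in neurons, and neurons over glia was 2.56 in BRC and 0.63 in ddH2O. With over 500 genes, Hiscl1 in ddH2O was 0.67. Without the 50 most abundant genes, GluCl was at -0.65 in neurons, and neurons over glia was 3.07 in BRC and 0.88 in ddH2O. Under median-of-ratios scaling GluCl in glia was at -3.00 and Grd in glia reversed to -0.026. With cluster 11 counted as glia, as in the first version of the naming rule, Grd in glia was at 0.47 and GluCl at -2.62, and neurons over glia in BRC was -0.37 for Grd and 2.74 for GluCl. Hiscl1 and LOC412219 had r = -0.37 in BRC. Over the clusters shared by both libraries, chosen after seeing the data, r in BRC reversed to 0.11 for Grd and GluCl and to 0.038 for Grd and Para. With the expectation taken over all nuclei in place of within clusters, the ratio moved for 8 of the 10 pairs in BRC, with 15.4 for Hiscl1 and Amel_8916, 3.71 for Lcch3 and Amel_8916 and 3.35 for Lcch3 and Hiscl1. No paired analysis was possible because each condition has 1 library.

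Amel_8916 rests on 17 UMIs in BRC glia and 187 in ddH2O glia, and levels of single clusters on fewer, so differences there were often not detectable at this depth. Intervals hold no spread between bees, colonies or preparations.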
